A study of Mus musculus with 6 samples.

Results

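The 10 genes described here sense, take up, carry, store or export iron, or control how it moves. They are the hepcidin genes *Hamp* and *Hamp2*, the transferrin receptors *Tfrc* and *Tfr2*, the plasma iron carrier transferrin (*Trf*), the ferritin heavy chain *Fth1*, the ferritin light chain *Ftl1* with its processed copy *Ftl1-ps2*, the iron exporter ferroportin (*Slc40a1*) and the BMP ligand *Bmp6*. They were chosen by symbol, as 10 of the 45777 genes of the table, and all 10 passed the filter on low counts that left 18636 genes. The list was drawn up with the difference between the genotypes in these mice already known, so their values are given as a description and no p-value is printed for them.

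The 3 control animals, called WT, were *Pak4* flox/flox, and the 3 knockout animals, called LKO, were Alb-Cre; *Pak4* flox/flox, with 1 liver RNA library from each. All mice were C57BL/6 males 8 weeks of age that had gone without food for 24 h, and both genotypes carried the floxed allele. The albumin promoter drives Cre in hepatocytes, so *Pak4*, which codes for the kinase PAK4, is left intact in the other cells of the liver, and the WT mice carry no Cre. The samples were whole liver, and in such bulk tissue fewer cells of a type and less RNA per cell cannot be told apart.

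Hepcidin is a peptide hormone made mainly by hepatocytes. It binds ferroportin, the only known iron exporter of mammalian cells, and causes its degradation, so that less iron enters the blood. Its gene is switched on by BMP6 and BMP2 from sinusoidal endothelial cells, which act through SMAD proteins with hemojuvelin, HFE and TFR2 as partners, and by interleukin-6 through STAT3. Inside the cell, iron regulatory proteins bind a hairpin in the mRNA, the iron-responsive element (IRE), when iron is scarce. They hold back translation of ferritin and ferroportin mRNA and protect transferrin receptor mRNA from decay.

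Values per mouse are given as CPM, the read count scaled to a common library size by edgeR's TMM method, which sets the bulk of genes level between libraries. TPM, the authors' length-scaled values, is used to compare levels between genes. The libraries held 45934632 to 55205564 counts in WT mice, against 53936281 to 59576437 in LKO mice, and the TMM factors lay apart, at 1.28 to 1.43 in WT against 0.639 to 0.816 in LKO mice. The summed level of 8 hepatocyte markers was 28838 to 34041 CPM in WT against 83354 to 102836 CPM in LKO mice, but overlapped in TPM, at 28493 to 32920 and 22509 to 36383, with 3 markers called higher and 2 lower. No marker was at 0 in all mice. *Pak4* was at 2.41, 2.31 and 2.59 TPM in WT mice, against 0.457, 0.265 and 0.845 TPM in LKO mice. In CPM it was 3.59, 3.21 and 4.10 against 1.93, 1.49 and 3.22, so that LKO mouse 3 lay within the WT range on that scale. With TMM, edgeR's test did not call *Pak4* (log2 fold change −0.71, SE 0.31, adjusted p = 0.10).

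Of the 10 genes, 4 were called higher in LKO mice (*Hamp*, *Bmp6*, *Fth1* and *Ftl1-ps2*), 3 were called lower (*Ftl1*, *Trf* and *Tfr2*) and 3 were not called (*Hamp2*, *Tfrc* and *Slc40a1*). Of all genes tested, 40.1% were called, 19.6% higher and 20.5% lower, and nothing is read from the count for the 10 genes beside this share. The same 7 genes had CPM that did not overlap between the genotypes, 4 of them above and 3 below the WT values, as did 54% of all genes, 26.1% above and 27.9% below. Their median log2 fold change (LKO over WT) was 0.01, and that of all genes −0.04.

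The direction of some of these differences depends on the scaling. When total counts replaced TMM, the median of all genes was −0.90 on the log2 scale, and 10.9% of the called genes were higher in LKO mice instead of 49.0%. On log2(TPM + 1) the median was −0.79 and 3.29% of the called genes were higher. *Fth1* and *Tfrc* were above 0 with TMM and below 0 on both of these scales. Relative to the median of all genes, all 10 kept their side with total counts, and on log2(TPM + 1) all but *Fth1* and *Tfrc* did. That change of side depends on the pseudocount. On log2(TPM + 0.1) the median was −1.34, and *Fth1* (−0.85) and *Tfrc* (−1.31) lay above it, as with TMM. In TPM, 7 of the 10 had all LKO values below all WT values, beside 74.9% of all genes. *Ftl1-ps2* alone was higher in every LKO mouse, beside 2.98% of all genes, and *Hamp* and *Bmp6* overlapped.

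**Figure D1:**
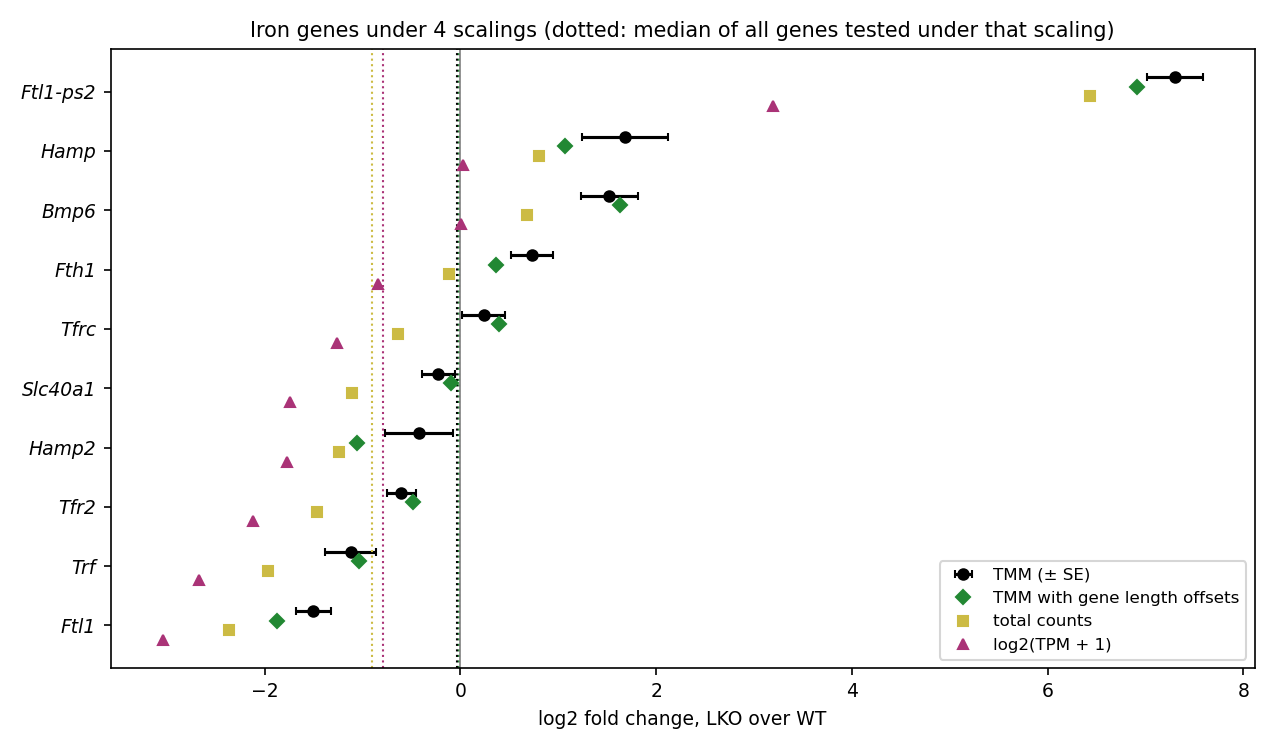
Log2 fold change of LKO over WT (x axis) for the 10 iron genes (y axis) under 4 scalings, with the standard error for TMM and a dotted line at the median of all genes tested under each scaling. *Ftl1-ps2*, *Hamp* and *Bmp6* lie to the right of every dotted line and *Ftl1*, *Trf*, *Tfr2*, *Hamp2* and *Slc40a1* to the left, while *Fth1* and *Tfrc* move from above 0 with TMM to below 0 with total counts and TPM.

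In TPM, the WT livers held most transferrin mRNA, at 4688 ± 517 (mean ± SD, n = 3), and next *Ftl1*, at 2998 ± 103. *Fth1* (334 ± 10.7) and *Hamp* (313 ± 103) followed and did not differ beyond their spread. Then came *Slc40a1* (131 ± 24.1) and *Tfr2* (115 ± 3.13), whose values also overlapped, *Tfrc* (36.5 ± 4.93), *Hamp2* (19.1 ± 5.11), *Bmp6* (0.821 ± 0.196) and *Ftl1-ps2* (0.164 ± 0.0621). In LKO mice transferrin still led with 749 ± 209 TPM, while *Ftl1* (365 ± 51.6) and *Hamp* (347 ± 205) overlapped. Counted together, the 10 genes took 0.960% to 1.15% of all read counts in WT mice, against 0.251% to 0.360% in LKO mice.

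**Figure D2:**
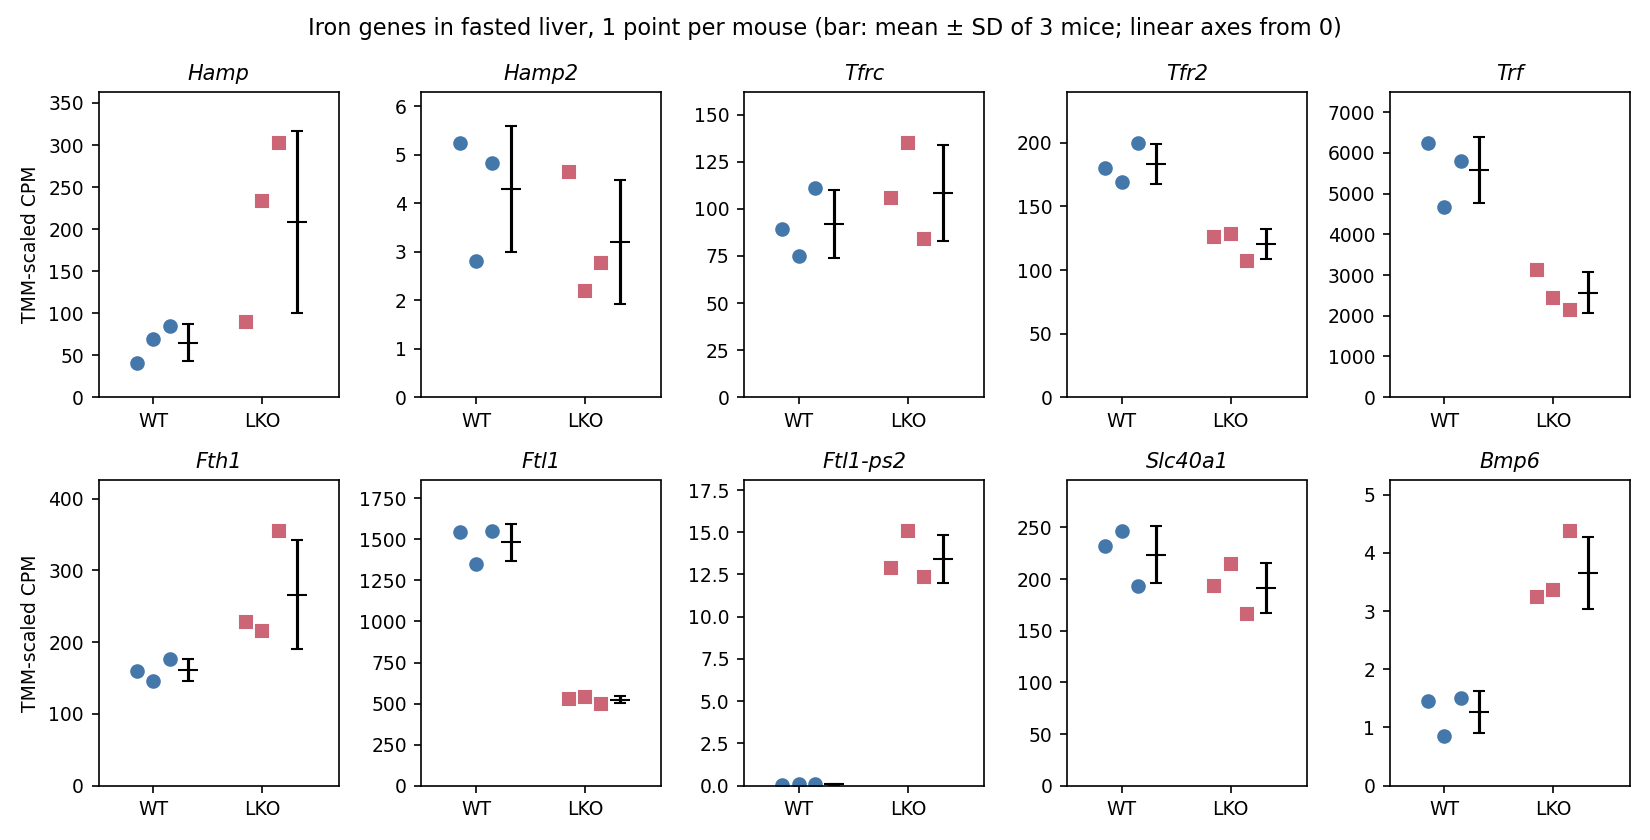
TMM-scaled CPM of the 10 iron genes (y axes, linear and from 0) in the 3 WT and the 3 LKO mice, 1 point per mouse, with the mean and SD of each genotype. *Hamp*, *Bmp6*, *Fth1* and *Ftl1-ps2* lie higher in each LKO mouse than in any WT mouse, *Ftl1*, *Trf* and *Tfr2* lie lower, and the points of *Hamp2*, *Tfrc* and *Slc40a1* overlap.

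Hepcidin was first compared between its genes, since the mouse has a pair of them side by side. *Hamp* (Entrez gene 84506, chromosome 7 from 30942368 to 30944029 of assembly GRCm38.p6, to which mm10 corresponds) codes for the iron hormone, and *Hamp2* (Entrez gene 66438, chromosome 7 from 30922372 to 30924181) is its neighbour. Over 410 aligned bases their mRNAs differed at 22 (94.6% identity), and 0 of 321 windows of 100 bases of *Hamp2* recurred in *Hamp*. The 250 bases before the start sites were alike at 227 of 247 aligned positions (91.9%). A stretch of this upstream sequence is shown because it holds the BMP response element GGCGCC and the STAT element TTCTTGGAA of *Hamp*, which are in capitals together with the matching positions of *Hamp2*. Both lie on the minus strand, at chr7:30944106-30944166 for *Hamp* and chr7:30924255-30924315 for *Hamp2*, and the sequences are from RefSeq (GRCm38.p6), 5′ to 3′.
Hamp: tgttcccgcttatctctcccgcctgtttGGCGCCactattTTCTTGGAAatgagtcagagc
Hamp2: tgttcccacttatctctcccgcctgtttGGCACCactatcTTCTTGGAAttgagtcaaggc

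Counted from 1 at the 5′ end of the stretch, with the base of *Hamp* first, the genes differed by G8A, G32A, T40C, A50T, G58A and A59G. Of these, G32A falls within the BMP element and none falls within the STAT element. Searched on both strands of the 300-base promoter windows of RefSeq, GGCGCC was found in 11.9% of 32851 windows and TTCTTGGAA in 0.417%. GGCGCC was in the window of *Hamp* and not in that of *Hamp2*, and TTCTTGGAA was in both. Such a match describes letters and is not evidence of binding.

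*Hamp* stood at 40.7, 69.5 and 84.7 CPM in WT mice 1, 2 and 3 and at 89.6, 233.6 and 302.6 CPM in LKO mice 1, 2 and 3. LKO mice 2 and 3 were well above the rest, and LKO mouse 1 was just above the highest WT mouse. The means were 65.0 ± 22.4 and 209 ± 109 CPM, a log2 fold change of 1.68 (SE 0.44) or 3.21-fold, which ranged from 1.31 to 2.04 when each mouse was left out in turn. Correcting for gene length gave 1.06, and total counts gave 0.80. In TPM, the WT mice held 195, 359 and 385 and the LKO mice 161, 314 and 566, so that the genotypes overlapped, with the lowest and the highest value both in LKO mice.

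*Hamp2* was much scarcer. It stood at 5.24, 2.81 and 4.84 CPM in WT mice, against 4.63, 2.18 and 2.77 CPM in LKO mice, from 76 to 391 reads per mouse. The genotypes overlapped in CPM (log2 fold change −0.43, SE 0.34), whereas in TPM the WT mice held 23.4, 13.4 and 20.4 and the LKO mice 7.74, 2.71 and 4.82 without overlap. With gene length corrected for, the log2 fold change was −1.06.

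The ratio of *Hamp* to *Hamp2* within a mouse does not depend on the scaling between libraries. In TPM it was 8.34, 26.7 and 18.8 in WT mice, against 20.8, 116 and 117 in LKO mice. LKO mice 2 and 3 lay far above the WT mice, and LKO mouse 1 lay among them, so that the genotypes overlapped. Counted as 1 gene, the hepcidins were at 69.3 ± 22.0 CPM in WT against 212 ± 108 CPM in LKO mice, or a log2 fold change of 1.61 (SE 0.42), which on log2(TPM + 1) was −0.037.

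**Figure D3:**
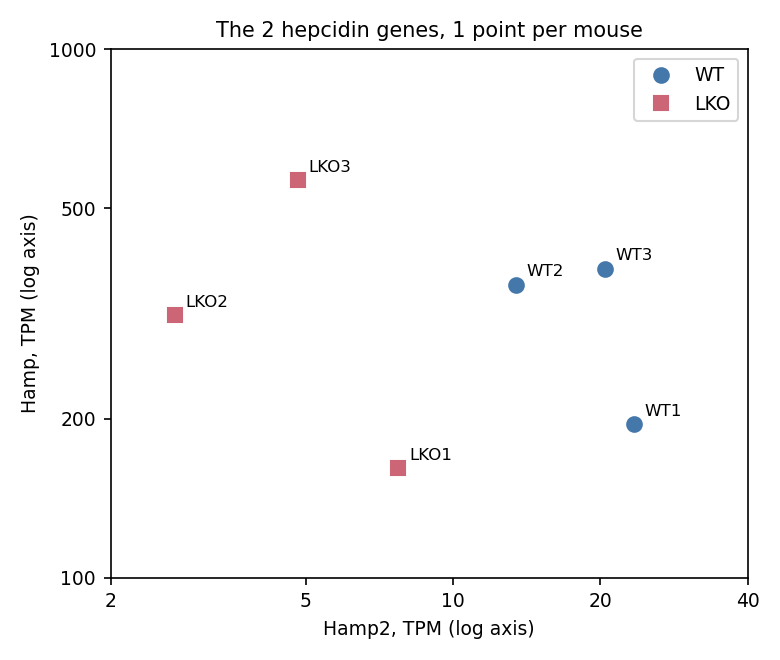
*Hamp* against *Hamp2* in TPM (both axes logarithmic), 1 point per mouse. The LKO mice lie to the left, at 2.71 to 7.74 TPM of *Hamp2* against 13.4 to 23.4 in WT mice, and spread over 161 to 566 TPM of *Hamp*, which takes in the whole WT range of 195 to 385.

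The genes whose CPM profile over the 6 mice was closest to that of *Hamp*, by the root mean square difference of log2 values centred on each gene's own mean among 12999 genes, were *Mup14* (0.225), *Pik3ip1* (0.258) and *Upp2* (0.259). *Mup14* codes for a major urinary protein and has near-identical copies that can share reads. *Pik3ip1* was scarce, at 0.533 ± 0.192 CPM in WT (25 to 47 reads) against 2.36 ± 1.26 CPM in LKO mice. For this comparison 0.5 CPM was added before logs were taken, which weighs on such low values. *Upp2*, a uridine phosphorylase, was at 155.6, 234.5 and 510 CPM in WT mice, against 398, 1076 and 1341 CPM in LKO mice. Its lowest LKO value lay below its highest WT value, so that the genotypes overlapped, unlike those of *Hamp*.

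Upstream of hepcidin, *Bmp6* (Entrez gene 12161, chromosome 13 from 38345716 to 38500314) codes for the main iron-responsive BMP ligand of the liver. It stood at 1.45, 0.856 and 1.51 CPM in WT mice, against 3.25, 3.35 and 4.37 CPM in LKO mice, from 56 to 202 reads per mouse. Each LKO mouse was above each WT mouse, and the log2 fold change was 1.52 (SE 0.29) or 2.87-fold, with a range of 1.28 to 1.65 when each mouse was left out. With total counts it was 0.68. In TPM the means were 0.821 ± 0.196 and 0.836 ± 0.253 and the genotypes overlapped.

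BMP6 is made by sinusoidal endothelial cells. Of 8 endothelial markers, 5 were called higher and 0 lower in LKO mice, beside 19.6% and 20.5% of all genes. Their summed level was 274 to 328 CPM in WT against 464 to 500 CPM in LKO mice, but 163 to 225 TPM in WT against 104 to 161 TPM in LKO mice. None of these markers was at 0 in all mice, and their part in the difference of *Bmp6* was not tested.

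*Tfr2* (Entrez gene 50765, chromosome 5 from 137569822 to 137588081) codes for the hepatocyte receptor that reads iron-loaded transferrin and feeds into hepcidin control. It stood at 180, 169 and 200 CPM in WT mice, against 126, 128 and 107 CPM in LKO mice. Each LKO mouse was below each WT mouse. The log2 fold change was −0.60 (SE 0.15), and −1.47 with total counts.

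Of 14 other genes for sensing iron through BMP and HFE that were tested, 2 rose and 2 fell in LKO mice (28.6%, beside 40.1% of all genes), and the median log2 fold change of the list was 0.17. *Bmp2*, the second endothelial ligand of hepcidin, rose from 7.57 ± 1.33 to 33.1 ± 9.25 CPM (log2 fold change 2.13, SE 0.23, adjusted p = 4.4e-04), and was at 0.47 on log2(TPM + 1) (limma, adjusted p = 0.026). *Bmpr2*, a type II BMP receptor, rose by 1.06 (SE 0.16, adjusted p = 0.0015) with TMM but was at −0.44 on log2(TPM + 1). *Tmprss6*, the protease that cuts hemojuvelin and so holds hepcidin down, fell from 172 ± 25.7 to 98.8 ± 18.2 CPM (log2 fold change −0.80, adjusted p = 0.011), a call that was lost without WT mouse 3 (adjusted p = 0.051). *Neo1*, neogenin, a binding partner of hemojuvelin, fell by 0.72 (adjusted p = 0.0056). Hemojuvelin itself (*Hjv*, log2 fold change −0.02, adjusted p = 0.94) and *Hfe* (0.21, adjusted p = 0.31) were not called. With total counts 1 gene of this list was called higher and 10 were called lower, and log2(TPM + 1) gave 1 and 13.

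Among 7 other genes known to be induced by BMP and SMAD signalling, 3 rose and 0 fell (42.9%, beside 40.1% of all genes), with a median log2 fold change of 0.54. Values over the list ran from −0.42 to 2.05, and the genes named here are all above 0 with TMM. *Bambi*, a decoy BMP receptor, rose from 1.91 ± 0.0718 to 7.92 ± 1.29 CPM (log2 fold change 2.05, SE 0.20, adjusted p = 3.5e-04), but by limma on log2(TPM + 1) it was at 0.23 and not called (adjusted p = 0.094). *Atoh8*, a transcription factor, rose by 1.28 (adjusted p = 0.026) and the inhibitory *Smad6* by 0.85 (adjusted p = 0.049), but both were below 0 on log2(TPM + 1), at −0.16 and −0.27, and *Smad6* was at −0.040 with total counts. Both calls were lost in 5 of 6 fits that left out a mouse, with adjusted p of 0.051 to 0.086 for *Atoh8* and 0.057 to 0.15 for *Smad6*. *Id1* (log2 fold change 0.35, adjusted p = 0.43) and *Smad7* (0.54, adjusted p = 0.30), the common readouts of this pathway in liver, were not called. On log2(TPM + 1), 0 genes of this list were called higher and 5 lower.

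Transferrin carries iron in plasma and is made in bulk by hepatocytes. *Trf* (Entrez gene 22041, chromosome 9 from 103208876 to 103230286) stood at 6247, 4682 and 5812 CPM in WT mice, against 3123, 2438 and 2132 CPM in LKO mice. Each LKO mouse was below each WT mouse, and the log2 fold change was −1.12 (SE 0.26), 2.18-fold lower, with −1.97 under total counts. It stayed below 0 when any 1 mouse was left out.

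The receptor that takes up iron-loaded transferrin in most cells is TFR1, the product of *Tfrc* (Entrez gene 22042, chromosome 16 from 32608896 to 32632794). It stood at 89.4, 75.2 and 111 CPM in WT mice, against 106, 135 and 84.0 CPM in LKO mice. The genotypes overlapped in CPM, with a log2 fold change of 0.24 (SE 0.22) that was 0.05 to 0.39 when a mouse was left out. With total counts it was −0.64. In TPM the genotypes did not overlap, at 32.1 to 41.8 in WT against 13.0 to 15.7 in LKO mice. The ratio of *Trf* to *Tfrc* in TPM within a mouse, which no scaling between libraries can alter, was 110 to 148 in WT against 38.1 to 62.3 in LKO mice, without overlap. The ratio of *Tfr2* to *Tfrc* was 2.82 to 3.49 in WT against 1.47 to 1.99 in LKO mice, also without overlap.

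Iron leaves cells through ferroportin. *Slc40a1* (Entrez gene 53945, chromosome 1 from 45908070 to 45926532) stood at 232, 246 and 193.0 CPM in WT mice, against 192.9, 215 and 166 CPM in LKO mice. The genotypes overlapped in CPM, with a log2 fold change of −0.23 (SE 0.17), and −1.11 with total counts. In TPM they did not overlap, at 106 to 154 in WT against 34.8 to 42.0 in LKO mice. Ferroportin is abundant in Kupffer cells, which recycle iron from red cells. Of 8 Kupffer cell markers, 4 were called higher and 0 lower in LKO mice, beside 19.6% and 20.5% of all genes, and their summed level was 279 to 422 CPM in WT against 478 to 944 CPM in LKO mice, but 292 to 475 TPM and 196 to 299 TPM. Their part in the level of *Slc40a1* was not tested.

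The ferritin shell is built of heavy chains, which oxidise iron, and light chains, which help it to form a mineral core. *Fth1* (Entrez gene 14319, chromosome 19 from 9980600 to 9985111) stood at 160, 145 and 176 CPM in WT mice, against 229, 216 and 354 CPM in LKO mice. LKO mouse 3 was highest, and the other LKO mice lay closer to the WT mice than to it. The log2 fold change was 0.73 (SE 0.22) with TMM, 0.36 when gene length was corrected for and −0.12 with total counts, and left-out mice moved it between 0.47 and 0.86. In TPM the WT mice held 333, 324 and 346 and the LKO mice 178, 125 and 287, so that *Fth1* was lower in each LKO mouse on that scale.

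*Ftl1* (Entrez gene 14325, chromosome 7 from 45457944 to 45459886) stood at 1545, 1352 and 1549 CPM in WT mice, against 527, 541 and 499 CPM in LKO mice. The LKO mice lay close together and far below the WT mice, and the log2 fold change was −1.50 (SE 0.18), 2.84-fold lower. Correcting for gene length gave −1.87, and it was −2.37 with total counts and −3.04 on log2(TPM + 1), and −1.59 to −1.47 when a mouse was left out. The ratio of *Ftl1* to *Fth1* in TPM within a mouse, free of the scaling between libraries, was 9.36, 9.03 and 8.54 in WT mice, against 2.24, 2.43 and 1.37 in LKO mice.

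The light chain has processed copies elsewhere in the genome that resemble its mRNA closely, so reads can be shared between them. *Ftl1-ps2* (Entrez gene 434624, chromosome 10 from 130591966 to 130592901) matched the *Ftl1* mRNA at all but 12 of 549 bases (97.8%), with 0 of 450 windows of 100 bases in common and a longest identical run of 93 bases. *Ftl2-ps* (Entrez gene 14337, chromosome 4 from 125504080 to 125505018) differed at 7 of 552 bases (98.7%), and 207 of its 453 windows recurred in *Ftl1*. *Ftl1-ps1* (Entrez gene 634386, chromosome 13 from 74406397 to 74407325) differed at 4 of 910 bases (99.6%), and 515 of 839 windows recurred. The transcripts compared for *Ftl1-ps2* and *Ftl2-ps*, of 549 and 552 bases, are shorter than the spans given here. The rest of each span was not compared, so any windows shared with *Ftl1* there were not counted.

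*Ftl1-ps2* had 4, 7 and 6 reads in WT mice, against 567, 525 and 571 reads in LKO mice. In CPM this was 0.0536, 0.107 and 0.0907 against 12.9, 15.1 and 12.3, a log2 fold change of 7.30 (SE 0.28). It was 3.19 on log2(TPM + 1) and 5.23 on log2(TPM + 0.1), where the pseudocount weighs on the low WT values. It was the only one of the 10 genes that was higher in every LKO mouse in TPM as well. *Ftl2-ps* stood at 29.4 ± 2.24 CPM in WT against 218 ± 13.9 CPM in LKO mice, or a log2 fold change of 2.89 (SE 0.15). *Ftl1-ps1* stood at 38.4 ± 3.60 and 92.6 ± 7.03 CPM, a log2 fold change of 1.27 (SE 0.14), but its TPM were lower in each LKO mouse. Values of all 4 light chain genes are uncertain to the extent that the counting divided reads between them.

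Of all reads counted on the light chain genes, *Ftl1* held 95.5% to 95.7% in WT mice, against 60.7% to 62.8% in LKO mice. The copies together held 4.34% to 4.47% and 37.2% to 39.3%. Within these, *Ftl2-ps* held 1.89% to 1.91% in WT against 25.0% to 26.3% in LKO mice, *Ftl1-ps1* 2.43% to 2.55% and 10.7% to 11.3%, and *Ftl1-ps2* 0.00332% to 0.00757% and 1.52% to 1.69%. None of these shares overlapped between the genotypes, and that of *Ftl1-ps2* in WT mice rests on 4 to 7 reads.

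Summed over the 4 genes, the light chain was at 1550 ± 118 CPM in WT against 847 ± 41.2 CPM in LKO mice. The log2 fold change of the sum was −0.87 (SE 0.18), 1.83-fold lower, in place of 2.84-fold for *Ftl1* alone. The sum with *Ftl2-ps* left out gave −1.27 (SE 0.18). The summed light chain stood to *Fth1* in TPM as 8.94 to 9.81 in WT against 2.25 to 4.06 in LKO mice. The table held 0 pseudogenes named after *Fth1*.

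**Figure D4:**
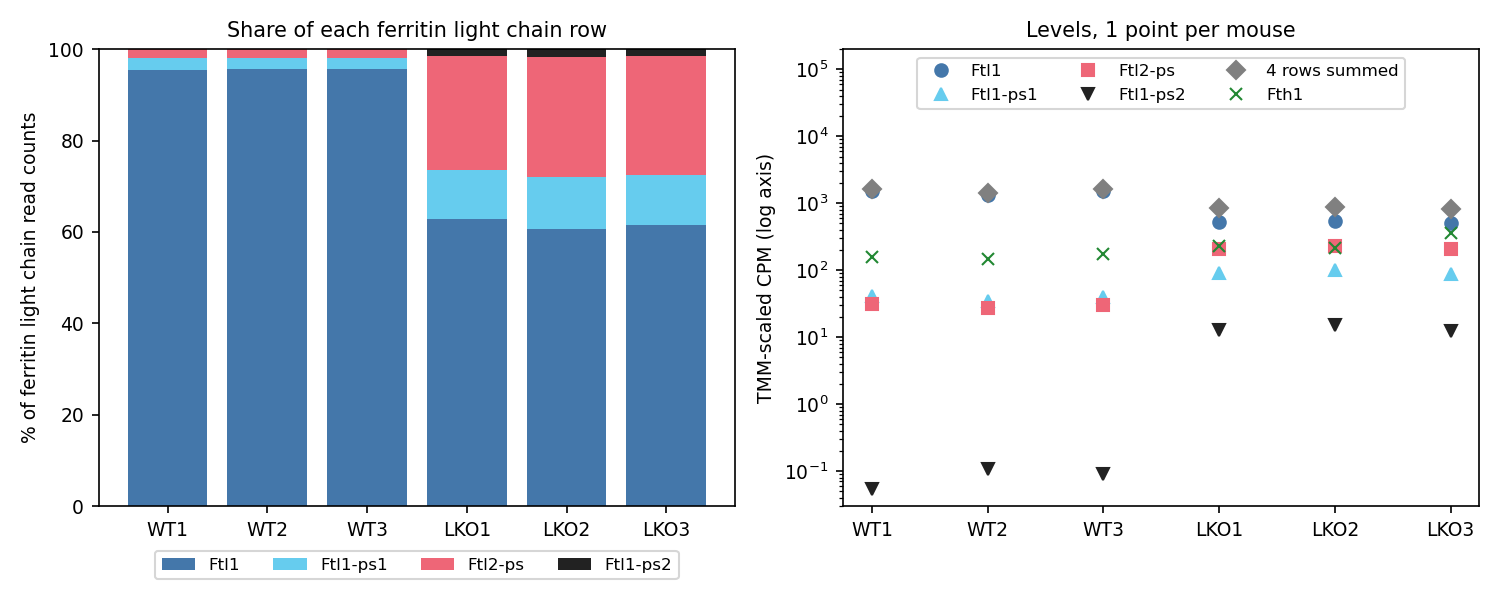
Left, the share of each ferritin light chain gene in the light chain read counts of each mouse (y axis in %). Right, TMM-scaled CPM per mouse on a logarithmic axis for these genes, their sum and *Fth1*. *Ftl1* holds on average 95.6% of the light chain reads in WT and 61.7% in LKO mice, and the summed light chain lies lower in each LKO mouse, at 810 to 891 CPM against 1413 to 1619 CPM in WT mice.

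The iron-responsive elements of these genes are shown because they sort the iron genes by how iron controls them after transcription. The search asked for C, any 5 bases, the loop CAGTGN (in capitals) and 5 paired bases, G-T pairs allowed, in the untranslated regions. It covered 1 GENCODE M21 transcript per gene on GRCm38, and only transcripts with an annotated coding sequence. It found 1 element at the 5′ end of *Fth1* (chr19:9982732-9982760, plus strand), *Ftl1* (chr7:45459779-45459807, minus), *Ftl1-ps1* (chr13:74406428-74406456, plus) and *Slc40a1* (chr1:45925465-45925493, minus), and 4 at the 3′ end of *Tfrc*, of which the first is shown (chr16:32631219-32631247, plus).
Fth1: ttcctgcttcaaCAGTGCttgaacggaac
Ftl1: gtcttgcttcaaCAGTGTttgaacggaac
Slc40a1: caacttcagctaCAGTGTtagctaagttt
Tfrc: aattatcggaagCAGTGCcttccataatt

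The element of *Ftl1-ps1* has the same letters as that of *Ftl1*. For *Ftl1-ps2* and *Ftl2-ps*, whose transcripts leave out part of the counted span, the search cannot show whether an element is present. Among the genes with a 5′ element, *Fth1* and *Ftl1-ps1* were higher and *Ftl1* lower in LKO mice in CPM, and *Slc40a1* overlapped. *Tfrc*, with 3′ elements, overlapped in CPM as well. In TPM all of these genes were lower in every LKO mouse than in any WT mouse, as were 74.9% of all genes. These data measure mRNA, and translation of these mRNAs was not measured here.

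Of 18 other genes for iron uptake, storage and export that were tested, 5 rose and 3 fell in LKO mice (44.4%, beside 40.1% of all genes), with a median log2 fold change of 0.16. Without WT mouse 2, WT mouse 3 or LKO mouse 2, 3 rose and 3 fell. *Ncoa4*, the receptor that delivers ferritin to lysosomes for breakdown, rose from 177 ± 9.75 to 450 ± 120 CPM (log2 fold change 1.35, SE 0.22, adjusted p = 0.0021), but was at −0.22 on log2(TPM + 1). *Slc11a2*, the iron importer DMT1, fell from 25.8 ± 3.63 to 8.66 ± 0.656 CPM (−1.58, SE 0.16, adjusted p = 3.7e-04). *Heph*, an iron oxidase that works with ferroportin, rose by 1.67 (adjusted p = 6.7e-04) with TMM, but by limma on log2(TPM + 1) it was at 0.066 and not called (adjusted p = 0.66). Its plasma counterpart ceruloplasmin (*Cp*, 0.20, adjusted p = 0.47) was not called. The iron regulatory proteins went opposite ways with TMM. *Aco1*, which codes for IRP1, fell from 215 ± 38.7 to 101 ± 17.3 CPM (−1.09, adjusted p = 0.0035), while *Ireb2*, which codes for IRP2, rose by 0.89 (adjusted p = 0.0095) with TMM and was at −0.0040 with total counts. *Slc25a37*, the mitochondrial iron importer mitoferrin 1, fell by 1.09 (adjusted p = 0.0015). *Slc39a14*, the hepatocyte importer of iron not bound to transferrin, was not called (−0.42, adjusted p = 0.32). With total counts 1 gene of this list was called higher and 11 were called lower, and log2(TPM + 1) gave 0 and 15.

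The list of heme synthesis, breakdown and scavenging had 5 genes that rose and 8 that fell among 20 (65.0%, beside 40.1% of all genes), with a median log2 fold change of −0.33. *Alas1*, the first and rate-limiting enzyme of heme synthesis in liver, fell from 382 ± 55.6 to 152 ± 64.6 CPM (−1.33, SE 0.30, adjusted p = 0.0091). *Alas2*, its erythroid form, fell by 1.37 (adjusted p = 6.5e-04) and *Alad*, the next enzyme, by 1.45 (adjusted p = 0.0045). *Slc46a1*, a folate and heme transporter, fell by 2.01 (adjusted p = 2.4e-04). *Cd163*, the macrophage receptor for haemoglobin bound to haptoglobin, rose from 1.31 ± 0.624 to 29.8 ± 5.25 CPM (4.50, SE 0.34, adjusted p = 2.1e-04). *Hpx*, the plasma heme carrier hemopexin, rose by 1.41 (adjusted p = 0.032), a call that was lost without any 1 of the WT mice (adjusted p of 0.078 to 0.089). LKO mouse 2 held 15275 CPM of *Hpx* against 5421 and 5449 in the other LKO mice, and without it the log2 fold change was 0.73 (adjusted p = 0.047). On log2(TPM + 1) *Hpx* was at −0.32. *Hmox1*, the inducible heme oxygenase, was not called (−0.35, adjusted p = 0.30). By total counts, the list had 1 gene called higher and 14 called lower, and on log2(TPM + 1) it had 1 and 17. Of 6 erythroid markers tested, 2 were called higher and 0 lower in LKO mice, beside 19.6% and 20.5% of all genes. The 7 erythroid markers with values, tested or not, summed to 139 to 278 CPM in WT against 857 to 1613 CPM in LKO mice. In TPM these markers summed to 472 to 882 in WT against 1000 to 1963 in LKO mice, also without overlap. Their part in *Alas2*, which differed the other way, and that of the Kupffer cell markers in *Cd163* were not tested.

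Of 23 genes for the assembly of iron-sulfur clusters, the main use of iron in mitochondria beside heme, 6 rose and 3 fell (39.1%, beside 40.1% of all genes), with a median log2 fold change of −0.02. *Lyrm4* (1.48, adjusted p = 8.5e-04), *Isca2* (1.14, adjusted p = 0.0024) and *Fdx2* (1.08, adjusted p = 0.010) rose with TMM but were below 0 on log2(TPM + 1). *Fdxr*, the reductase that supplies electrons to the ferredoxins, fell by 1.02 (adjusted p = 0.0090). By total counts 1 gene was called higher and 14 were called lower, and on log2(TPM + 1) 0 and 19.

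Hepcidin is also an acute-phase gene. Of 14 genes of interleukin-6 signalling and the acute phase, 6 rose and 1 fell (50.0%, beside 40.1% of all genes), with a median log2 fold change of 1.30. *Apcs*, serum amyloid P, rose by 2.39 (adjusted p = 9.3e-04), the fibrinogen chains *Fgb* and *Fgg* by 2.14 (adjusted p = 0.0029) and 2.03 (adjusted p = 0.0032), and C-reactive protein (*Crp*) by 1.95 (adjusted p = 9.6e-04). *Saa3*, a serum amyloid A made outside hepatocytes as well, fell by 2.96 (adjusted p = 2.4e-04). By total counts 5 genes were called higher and 4 lower, and by limma on log2(TPM + 1) 1 higher and 4 lower. On that scale *Fgb* (0.50, adjusted p = 0.13), *Fgg* (0.41, adjusted p = 0.22) and *Crp* (0.39, adjusted p = 0.25) were not called.

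**Figure D5:**
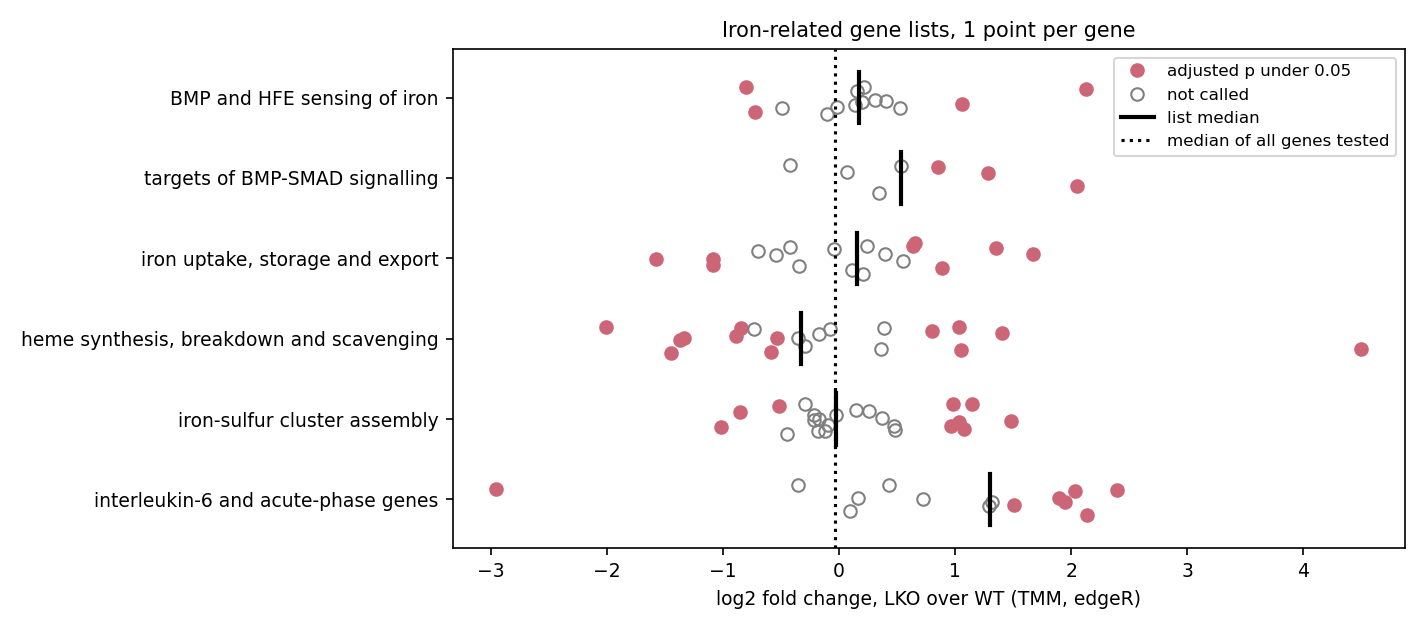
Log2 fold change of LKO over WT with TMM (x axis) for each gene of the 6 iron-related lists (y axis), 1 point per gene, filled where the adjusted p was under 0.05. The acute-phase list has its median at 1.30 and that of heme genes at −0.33, on either side of the median of all genes at −0.04, and *Cd163* stands apart at 4.50.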

How the data were processed

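The authors sequenced liver RNA of 3 WT and 3 LKO mice, aligned reads to mm10 and deposited a single table that gives, for 45777 genes, each mouse's read counts, FPKM and TPM. The labels name HISAT2 2.1.0, Bowtie2 2.3.4.1, StringTie 2.1.3b, FastQC 0.11.7 and bcl2fastq 2.20.0. The deposited read counts were not normalized, come from StringTie's coverage as whole numbers, and can divide reads between near-identical genes. The deposited FPKM were scaled by the authors to gene length and depth and entered here only as relative gene length. The deposited TPM have the same sum in each mouse. The methods describe a total RNA kit after rRNA removal, whereas the labels name a kit that selects mRNA, and the counting's use of strand is not given in the sources used here. Nothing beyond genotype and number tells the mice of a group apart, and p-values weigh the difference between genotypes against the spread between these mice.

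A gene was tested if at most 1 of the 6 mice had a count of 0, which gave 18636 genes. Counts were scaled by TMM and compared by edgeR's quasi-likelihood test (edgeR 4.0.16, R 4.3.3; common biological coefficient of variation 0.254), two-sided, with p-values adjusted by Benjamini-Hochberg over these genes, and a gene was called at an adjusted p under 0.05. The precision of a value is an SD over 3 mice or the model's standard error. The 10 iron genes and the 6 lists were chosen with earlier results of these data known. All 10 are named. In each list up to 5 genes were named, those with the largest change among called genes with no overlap between genotypes and at least 1 CPM, and also *Hfe*, *Hjv*, *Tmprss6*, *Id1*, *Smad7*, *Aco1*, *Ireb2*, *Slc39a14*, *Cp*, *Ncoa4*, *Alas1* and *Hmox1*. The result of 1 gene picked by this rule is not reported here, and the gene stays in the counts. *Erfe*, *Cybrd1* and *Ftmt* were not tested because of the filter. Gene numbers matched RefSeq's GRCm38.p6 for 45679 genes.

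Alternatives were edgeR's exactTest, DESeq2 1.42.0, its size factors, upper-quartile scaling, total counts, 3 other filters, a 2-fold limit, limma 3.58.1 on log2(TPM + 1) and log2(TPM + 0.1), the replicate number as a block, offsets for gene length (lowess, span 0.3), both together, and fits without each mouse. The light chain sum with *Ftl2-ps* was added after the data had been seen. The procedures were tested on simulated data in which few genes changed, in random directions. Such data cannot show which scaling is right where many genes differ.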

Additional observations from a re-analysis of the deposited data

How the results depend on the processing

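The scaling mattered most. With limma on log2(TPM + 1), 13775 genes were called (453 higher and 13322 lower) in place of 7476, and 4639 changed by at least 2-fold with TMM. That scale called 14 genes for BMP and HFE sensing, 5 BMP-SMAD targets, 15 genes for iron uptake, storage and export and 19 for iron-sulfur clusters, and total counts called 11 for sensing and 15 for iron-sulfur clusters. Leaving out each mouse gave 5663 to 7309 calls over all genes and 1 to 3 BMP-SMAD targets, with *Bambi* alone left without WT mouse 1, 2 or 3 or LKO mouse 3. With total counts *Fth1* turned to −0.12, *Hfe* to −0.66, *Smad6* to −0.040, *Id1* to −0.51, *Smad7* to −0.37, *Cp* to −0.67, *Ireb2* to −0.0040 and *Tfrc* to −0.64. *Bmpr2*, *Atoh8*, *Ncoa4*, *Isca2*, *Fdx2* and *Hpx* stayed above 0 with total counts but were not called (adjusted p of 0.087 to 0.57). On log2(TPM + 1) *Fth1* turned to −0.84 (−0.85 with a pseudocount of 0.1), *Tfrc* to −1.26, *Bmpr2* to −0.44, *Hfe* to −1.21, *Atoh8* to −0.16, *Smad6* to −0.27, *Id1* to −0.78, *Smad7* to −0.49, *Ncoa4* to −0.22, *Cp* to −1.34, *Ireb2* to −0.67, *Hpx* to −0.32, *Lyrm4* to −0.053, *Isca2* to −0.40 and *Fdx2* to −0.32. *Id1* turned to −0.034 with gene length offsets and to −0.0065 with the block added. *Hjv*, at −0.02, turned to 0.0052 with DESeq2, 0.0051 with its size factors, 0.063 with upper-quartile scaling, 0.042 with protein-coding genes alone, 0.035 with gene length offsets, 0.043 with these and the block, and between −0.18 and 0.094 with a mouse left out. The summed hepcidins were at 0.73 with total counts, at 0.88 with block and length offsets, and at −0.037 on log2(TPM + 1) and log2(TPM + 0.1), and at 1.25 to 1.97 without a mouse. *Ftl1* with the *Ftl1-ps* genes was at −2.14 with total counts, −1.64 with length offsets with or without the block, and −2.81 on both TPM scales. With *Ftl2-ps* added these were −1.74, −1.24 and −2.40. The cause of these shifts was not tested.

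Deviations of same-numbered mice from their genotype's mean correlated at 0.00023, −0.039 and −0.056, so no effect shared by replicate number was seen. So few mice cannot show whether they were paired in some other way. With the replicate block 6431 genes were called, and *Smad6* (adjusted p = 0.083) and *Hpx* (adjusted p = 0.056) were no longer called. With length offsets *Fdx2* was not called (adjusted p = 0.085). With 3 mice a genotype, *Hamp*, whose LKO values spread from 89.6 to 302.6 CPM, is less precise than *Ftl1*, and *Bmp6* and *Hamp2* rest on few reads.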
